A study of Mus musculus with 721 samples.

Results

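Ins1 and Ins2, the insulin genes of the mouse, were followed across single cells sorted from the embryonic pancreas. They were taken by gene name and make up 2 of the 32806 genes in the deposited expression table. Ins1 (ENSMUSG00000035804.4) lies on mm10 chromosome 19 from 52264323 to 52265456, and Ins2 (ENSMUSG00000000215.4) on chromosome 7 from 142678656 to 142699510.

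The cells came from pancreata of mouse embryos that carry a Neurogenin 3-eGFP reporter, and every group shares this genotype; no source used here gives the strain or the design of the reporter allele. Cells positive for eGFP were sorted singly into plates and their cDNA was made with SMART-seq, a full-length method without molecular identifiers. The groups are 8 sets of cells: E11.5 and E12.5 from run 1, and E13.5, E14.5 and E15.5 from run 1 and from run 2, where E is the embryonic day. Of 721 deposited cells, 658 had at least 100000 fragments and 1500 genes at 1 FPKM or more and were kept, with 68 to 94 cells per set. The labels name no embryos, so the set was the unit of every test, the cells of a set are not replicates, and the runs of a day may share embryos.

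Insulin is made as a preprohormone, folded and cut on its way through the endoplasmic reticulum and the secretory granule, and stored with zinc in beta cells. In the pancreas the transcription factor Neurog3 starts endocrine differentiation in epithelial progenitors and is then switched off, while the factor Fev marks a later precursor state before hormones appear. Mice have a second, compact insulin gene, Ins1, which arose from Ins2 by retroposition, whereas most mammals have a single gene.

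The sequences show what separates the genes and what the reads had to tell apart. The coding regions of Ins1 and Ins2 hold 324 and 330 bases, and 301 of 324 aligned bases (92.9%) are identical. The 48 aligned columns with the most differences within an exon lie in the connecting peptide region, at chr19:52264820-52264861 on the plus strand and chr7:142678802-142678849 on the minus strand (GRCm38, GENCODE vM21). Capitals mark the 11 of 48 aligned columns that differ, and 6 of these columns hold a base of Ins2 without a partner in Ins1.
Ins1 coding: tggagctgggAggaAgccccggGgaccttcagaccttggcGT
Ins2 coding: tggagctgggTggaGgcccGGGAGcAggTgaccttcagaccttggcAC
Over whole transcripts the likeness was low: 6.26% of the 25-base windows of the Ins1 transcript occur in the main Ins2 transcript, and 15.1% the other way round. With 50-base windows the shares were 0.691% and 1.72%. The longest run of coding bases identical in both genes was 54 bases. Fragments from such runs could have been split between the genes, and no source used here says how the authors' counting divided them.

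The 250 bases before the Ins1 start, chr19:52264047-52264296 on the plus strand (RefSeq, GRCm38.p6), are shown because Ins1 and Ins2 moved together in the cells described further on. Capitals mark CATCTG, an E-box of the kind that NeuroD1 binds, and TAAT, the core that homeodomain factors such as Pdx1 bind, on either strand (ATTA is TAAT on the minus strand).
Ins1 upstream: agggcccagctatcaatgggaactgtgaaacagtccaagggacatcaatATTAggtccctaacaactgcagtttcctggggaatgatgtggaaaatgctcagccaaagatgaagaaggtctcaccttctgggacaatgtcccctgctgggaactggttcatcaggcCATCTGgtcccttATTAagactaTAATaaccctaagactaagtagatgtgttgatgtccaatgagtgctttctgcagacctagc
CATCTG occurred 1 time in this window, and 14.4% of 32851 promoters of the same length hold it on either strand. TAAT occurred 3 times, which 16.7% of the promoters match or exceed, and 54.9% hold it at least 1 time. The motifs do not overlap each other here, and a match describes letters and not binding.

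FPKM (fragments per kilobase of transcript, here as the authors deposited them) turned out to lie on nearly 1 scale for all cells instead of being scaled to the depth of each cell. A value of 2.14 FPKM, which is 1 fragment of Ins1, was found in 21 deposited cells whose fragment totals ran from 576 to 1020000. Summed FPKM followed the fragment total with a Spearman rho of 0.93 over the deposited cells. On this scale 10 FPKM, the threshold used below for calling a gene detected, stands for 4.68 fragments of Ins1 but 1.41 fragments of Ins2. Fragment totals of kept cells ran from 101675 to 1990000 with set medians between 480057 and 844416, and the medians did not rise with the day. Set means of the ribosomal protein gene Rpl13 were 84.7 FPKM for E12.5 run 1 and 111 FPKM for run 1 of E13.5, and between 1143 and 2160 FPKM in the other 6 sets. The share slopes are therefore also given without both low sets.

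Ins2 was found at 10 FPKM or more in a larger share of cells than Ins1 in every set. With 3 against 0 of 73 cells at E11.5, which gene came on first was not resolved at this depth. The Ins2 share was 4.11% of E11.5 cells (3 of 73) and 3.33% of E12.5 cells (3 of 90, 95% exact binomial interval 0.693% to 9.43%). At E13.5 it was found in 11.8% of run 1 and 6.41% of run 2 cells, and at E14.5 in 13.8% and 21.2%. At E15.5 it reached 56.8% of run 1 (45.8% to 67.3%) and 54.9% of run 2 cells (43.5% to 65.9%), and these intervals cover counting error only. The shares of the runs of each day lay closer to each other than the shares of E14.5 and E15.5 did.

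Ins1 was absent at this threshold from E11.5 (0 of 73 cells) and from E13.5 run 1 (0 of 68). By the rule of 3 counts these zeros allow shares of up to 4.11% and 4.41%, and the upper ends of the exact two-sided 95% intervals were 4.93% and 5.28%. It was found in 2.22% of E12.5 cells (2 of 90) and 1.28% of E13.5 run 2 cells (1 of 78). From there it rose to 8.51% and 10.6% in the E14.5 sets and to 15.9% and 22% in the E15.5 sets, run 1 before run 2. Every E14.5 and E15.5 set lay above every earlier set for Ins1, whereas for Ins2 the 11.8% of E13.5 run 1 lay close to the 13.8% of E14.5 run 1.

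**Figure D1:**
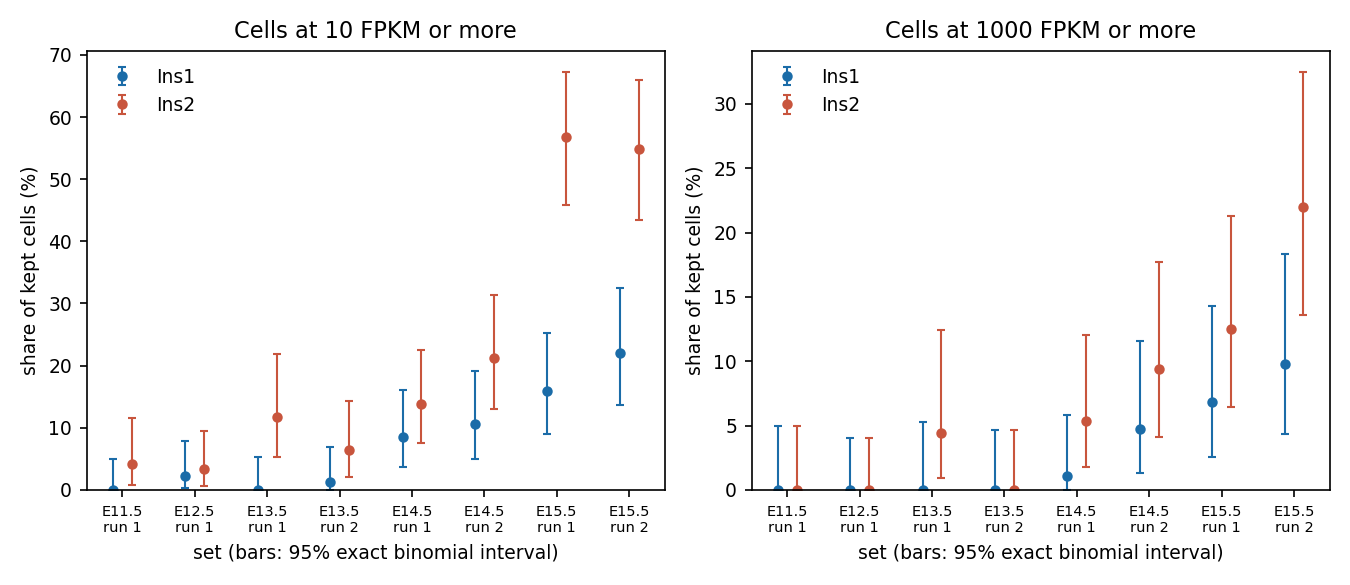
Share of kept cells (y axis, %) with Ins1 (blue) or Ins2 (red) at 10 FPKM or more (left) and 1000 FPKM or more (right) in each of the 8 sets (x axis); points are shares and bars are 95% exact binomial intervals, which cover counting error only. Ins2 lies above Ins1 in all 8 sets on the left, from 4.11% against 0% at E11.5 to 54.9% against 22% in E15.5 run 2.

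The share of cells with Ins2 rose by 13.7 percentage points per day and that of Ins1 by 4.90 points. By an exact two-sided permutation of days within runs (720 arrangements, smallest possible p 0.00278) p was 0.00556 for Ins2 and 0.0111 for Ins1, and 0.0139 for each after adjustment over the 4 shares tested. Cells with both genes rose by 4.44 points per day (exact p = 0.0111, adjusted 0.0139) and cells with Ins2 but not Ins1 by 9.26 points (exact p = 0.0139, adjusted 0.0139). Within run 1 alone the slopes were 11.6 points for Ins2 (exact p = 0.0333) and 3.81 for Ins1 (exact p = 0.0667). Within run 2, whose 3 days allow no exact p under 0.333, they were 24.2 and 10.3 points. The slopes kept their sign without each set in turn, but none of the 4 passed at an adjusted 0.05 without E12.5 run 1 (exact adjusted p from 0.0556 to 0.0764) or without E15.5 run 1 (0.0694), where the Ins2 slope was 9.61 points. With 1 value per day all 4 had an exact adjusted p of 0.0667, and in the E13.5 to E15.5 sets alone it was between 0.0741 and 0.111. Without both sets low in Rpl13 the slopes were 13.4 points for Ins2 and 4.96 for Ins1 (exact adjusted p = 0.148 and 0.111).

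Within a set the Ins2 share exceeded the Ins1 share by a mean of 14 points, and it was higher in 8 of 8 sets (exact two-sided sign-flip p = 0.00781, the smallest this design allows). With 1 value per day the mean gap was 11.7 points (exact p = 0.0625, the smallest that 5 days allow). The gap was 1.11 points at E12.5 and 40.9 points in E15.5 run 1. Because 10 FPKM asks for fewer fragments of Ins2 than of Ins1, the genes were also compared at equal fragments. At 10 or more fragments of each gene Ins2 was found in 78 cells and Ins1 in 47, the mean gap was 4.83 points (exact p = 0.0156), and the share of cells with Ins2 but not Ins1 gave a daily slope of 1.63 points (exact adjusted p = 0.147).

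The lowest Ins2 values need a background beside them. Of 40 cells of E11.5 and E12.5 with at least 2 of 5 leukocyte markers at 10 FPKM (Ptprc, Cd68, C1qa, C1qb and Csf1r), 0 had Ins2 at 10 FPKM, and 0 of 13 endothelium-marked cells of E12.5 had it. At E15.5, 7 of 8 leukocyte-marked cells had Ins2 at 10 FPKM, and 3 of them had it at 1000 FPKM or more, up to 237276. Among 33 cells of E14.5 and E15.5 with Ins2 at 10000 FPKM or more, C1qa was at 10 FPKM in 16, Ptprc in 1 and C1qb in 0. The mark at E15.5 thus need not mean a leukocyte, and 7 of 8 is not a rate for leukocytes. The median fragment totals were 606416 in the 40 early and 622673 in the 8 late cells, and the summed marker level ran from 70.4 to 12762 and from 22.5 to 12450 FPKM. The 1 late cell with all 5 markers, with the complement gene C1qb at 8918 FPKM, held Ins2 at 35.6 FPKM and Ins1 at 0. An Ins2 share at 10 FPKM for E15.5 thus includes a level that was also seen in a cell of another type.

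The wells carried 2 index sequences each, and in E15.5 run 1 low Ins2 values went with the second index. Among cells of that set under 1000 FPKM of Ins2, 36 of 54 (66.7%) that shared their second index with a cell above 1000 FPKM had Ins2 at 10 FPKM, against 3 of 23 (13%) that did not. In E15.5 run 2 these shares were 23 of 52 (44.2%) and 4 of 12 (33.3%), in E14.5 run 1 7 of 41 (17.1%) and 1 of 48 (2.08%), and in E14.5 run 2 8 of 58 (13.8%) and 2 of 19 (10.5%). For the first index the shares were 27 of 51 (52.9%) and 12 of 26 (46.2%) in E15.5 run 1, 45.7% and 33.3% in E15.5 run 2, 5.71% and 11.1% in E14.5 run 1, and 2 of 40 and 8 of 37 (21.6%) in E14.5 run 2. The part of index sharing in the Ins2 shares was not tested. The runs of a day also used the same index pairs, with 58, 83 and 77 shared pairs for E13.5, E14.5 and E15.5 in turn.

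Cells at 1000 FPKM or more lie above those low levels. Ins2 reached 1000 FPKM in 0 cells before E13.5, 3 and 0 cells of E13.5 (run 1 before run 2), 5 and 8 of E14.5, and 11 and 18 of E15.5. Ins1 reached it in 0 cells up to E13.5, in 1 and 4 cells of E14.5, and in 6 and 8 cells of E15.5. The slopes at this level were 4.36 points per day for Ins2 (exact p = 0.00556, adjusted 0.0167) and 2.04 for Ins1 (exact p = 0.0167, adjusted 0.0167). The Ins2 gap over Ins1, 3.91 points, had an exact p of 0.0625.

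**Figure D2:**
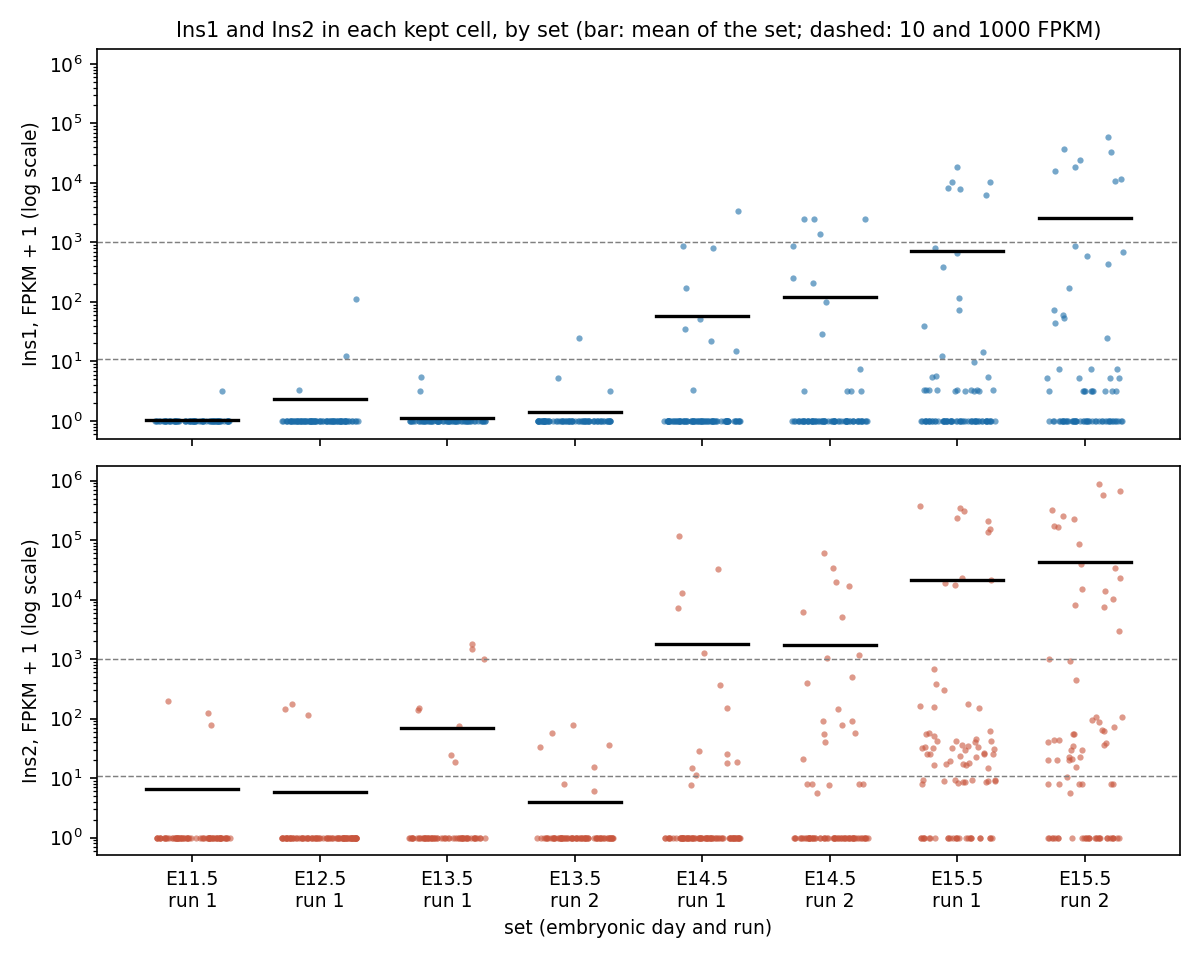
Ins1 (top) and Ins2 (bottom) in each kept cell (y axis, FPKM + 1, log scale) by set (x axis); each point is a cell, black bars are set means and dashed lines mark 10 and 1000 FPKM. In E15.5 run 1 no cell lies between 673 and 17337 FPKM of Ins2, and the highest cell of E15.5 run 2 reached 888740 FPKM.

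Set means differed by orders of magnitude and rested on few cells. Mean Ins2 was 5.45 FPKM for E11.5 and 4.81 for E12.5. It was 69 and 2.94 FPKM for run 1 and run 2 of E13.5, 1833 and 1732 for those of E14.5, and 21110 and 43009 for those of E15.5. Up to E13.5 the means of Ins2 did not follow the day, and from E14.5 on each day lay above all earlier ones.

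Mean Ins1 was 0.0303 FPKM for E11.5 and 1.37 for E12.5. It was 0.0992 and 0.383 FPKM for run 1 and run 2 of E13.5, 56.6 and 120 for those of E14.5, and 725 and 2605 for those of E15.5. The E12.5 mean lay above both of E13.5, and the later days again did not overlap. From E13.5 on the 3 highest cells of a set held 55.6% to 94.7% of its summed Ins2. Both the number of cells at 1000 FPKM and the median Ins2 within them were higher at later days, with medians of 1479 FPKM for E13.5 run 1, 12718 and 11575 for the runs of E14.5, and 155861 and 63196 for those of E15.5.

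Across all 8 sets the slope of the mean level was 3.76 ± 0.57 log2 units per day (SE, on log2(mean FPKM + 1)) for Ins2 and 2.87 ± 0.57 for Ins1. These were the steepest and the next steepest of 16154 genes, but with limma no gene passed at an adjusted 0.05 (0% called, with 11.8% at an unadjusted p under 0.05), and the adjusted p was 0.154 for Ins2 and 0.240 for Ins1. With the logarithm taken per cell before averaging, the slopes were 1.29 for Ins2, in rank 13, and 0.57 for Ins1, in rank 182 (limma, adjusted p = 0.0827 and 0.0841). In the E13.5 to E15.5 sets alone the slopes were 5.41 and 5.06 (limma, adjusted p = 0.185 and 0.0533). Within run 1 they were 3.17 and 2.35 log2 units and within run 2 6.71 and 5.44. Between runs of the same days, where limma called 0.711% of genes, Ins1 was 1.08 ± 0.35 higher in run 2 (adjusted p = 0.288) and Ins2 differed by -1.07 ± 1.04 (adjusted p = 0.607). That Ins2 value rests on E13.5, where 69 FPKM in run 1 faced 2.94 in run 2, and without either E13.5 set it was 0.47.

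In the 45 cells at 1000 FPKM of Ins2 or more, the insulin share of summed FPKM ran from 0.0729% to 32.2%, with a median of 3.27%. This share does not depend on depth, but FPKM is per length, so a fragment of Ins2 weighs more in it than a fragment of Ins1. Ins1 and Ins2 together made up 0.0729% to 0.109% of the summed FPKM of the 3 E13.5 cells. The median was 2.19% for run 1 and 1.58% for run 2 of E14.5, and 13.8% and 7.95% for those of E15.5. The highest cell, in E15.5 run 2, had 32.2% of its FPKM in the insulin genes.

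The earliest insulin transcripts were found in few cells of several kinds. At E11.5 the 3 Ins2 cells held 196, 125 and 77.3 FPKM, with Gcg, the glucagon gene of alpha cells, at 22905, 20626 and 0 FPKM. Ins1 in these cells was 2.21 (1 fragment), 0 and 0 FPKM, and neither Neurog3 nor Fev was detected in any of them. At E12.5 the Ins2 values were 175, 143 and 116 FPKM. The 143 FPKM cell was the earliest with both genes, with Ins1 at 109 FPKM and Gcg at 73112, and another cell held Ins1 just above 10 FPKM with no Ins2 and Gcg at 26896. Thus 4 of the 7 insulin cells of these days had Gcg at 20626 FPKM or more and the other 3 at most 1.98.

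At E13.5 run 1 gave 8 Ins2 cells. The 3 highest held 1803, 1479 and 1004 FPKM of Ins2 with Ins1 at 0 in each, and Neurog3 at 557, 124 and 611 FPKM. The others held 149, 141, 75.7, 23.5 and 18 FPKM, with Ins1 at 2.22 FPKM in 1 cell and 0 in the rest. Neurog3 was at 10 FPKM or more in 7 of these 8 cells, and Gcg above 1000 FPKM in 2. In run 2 the Ins2 values were 78.3, 56.9, 35.6, 32.5 and 14.2 FPKM, and 1 further cell held Ins1 at 23.5 FPKM alone. Neurog3 was at 10 FPKM in 3 of these 5 Ins2 cells, and over both runs in 76.9% of Ins2 cells against 69.9% of the other E13.5 cells. No cell of run 2 at this day reached the levels of the 3 highest cells of run 1.

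The joint pattern was mostly nested: of the 155 cells with either gene at 10 FPKM, 103 had Ins2 alone, 42 had both and 10 had Ins1 alone, and 503 cells had neither. At 10 fragments of each gene the counts were 39 with Ins2 alone, 39 with both and 8 with Ins1 alone. Of the cells with both, 12 were from E14.5, 29 from E15.5 and 1 from E12.5. Ins1 at 10 FPKM followed the Ins2 level: it was found in 10 of 100 cells (10%) with Ins2 from 10 to 1000 FPKM and in 5 of 12 (41.7%) from 1000 to 10000. It was found in 13 of 17 (76.5%) from 10000 to 100000 and in 14 of 16 (87.5%) above that. Of the 145 Ins2 cells, 76 held 10 to 100 FPKM of it. At the 18-fold median ratio given below, Ins1 would be under 10 FPKM in those cells. The threshold alone can thus produce nesting and a rise with the Ins2 level, and its part in them was not tested.

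**Figure D3:**
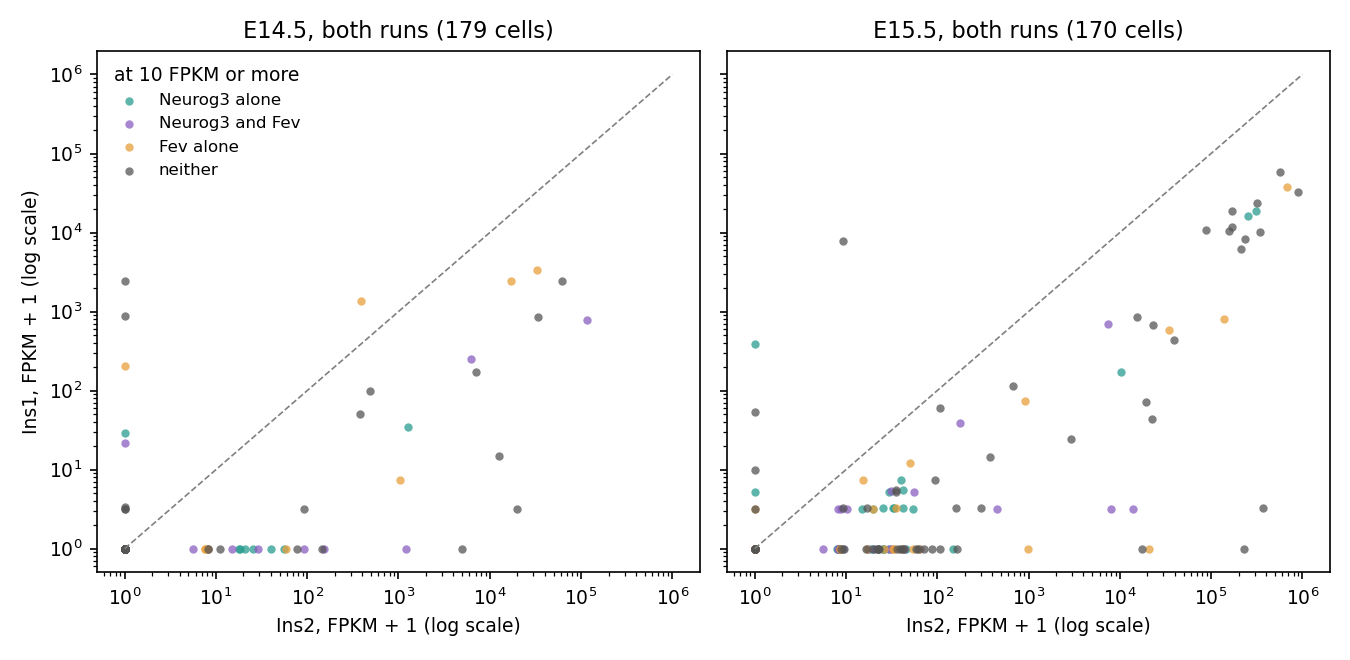
Ins1 (y axis) against Ins2 (x axis), both as FPKM + 1 on log scales, in each kept cell of E14.5 (left) and E15.5 (right), coloured by whether Neurog3 and Fev were at 10 FPKM or more; the dashed line marks equal FPKM. Of the 42 cells of the whole series with both genes at 10 FPKM, 41 lie on the Ins2 side of the line.

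In cells with both genes Ins2 was the more abundant transcript per length. The median log2 ratio of Ins2 to Ins1 FPKM was 5.33 in E14.5 run 1 (6 cells, 2.90 to 9.82), 3.70 in E14.5 run 2 (6 cells, -1.81 to 5.31), 4.82 in E15.5 run 1 (12 cells, 2.13 to 8.06) and 3.99 in E15.5 run 2 (17 cells, 0.84 to 9.06). The sets overlapped widely, with an SD over cells of 1.85 to 2.62. The mean of the 4 medians was 4.46, and an exact two-sided sign-flip test over 4 sets cannot give less than the 0.125 it gave. Over all 42 cells the median ratio was 18-fold. As fragments, which does not correct for the longer Ins1 transcript, the mean of the set medians was 2.72, and Ins2 had more fragments in 39 of the 42 cells.

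Within these 42 cells log2 Ins1 and log2 Ins2 had a Pearson r of 0.84, which describes cells that share libraries and depth and were cut on both genes. Along the Ins2 level the median log2 ratio was 5.25 from 1000 to 10000 FPKM, 5.31 from 10000 to 100000 and 4.11 above that. The median of 2.26 between 10 and 1000 FPKM is bounded by the threshold itself, since Ins1 had to reach 10 FPKM there. In the higher groups Ins1 reached 10 FPKM in 5 of 12, 13 of 17 and 14 of 16 cells. The cells left out have higher ratios, so these medians understate the ratio to differing degrees and their order is not a trend. The single E12.5 cell had a log2 ratio of 0.38.

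Some cells departed far from the common ratio. Among 42 cells of E14.5 and E15.5 with Ins2 at 1000 FPKM or more, Ins1 was under 10 FPKM in 10, at 0 in 5 and at 1 to 3 fragments in the other 5. They include an E15.5 run 1 cell with Ins2 at 371762 and Ins1 at 2.24 FPKM, and an E15.5 run 2 cell with 231299 and 0. These cells had 1020000 and 1220000 fragments, and the beta cell peptide gene Iapp stood at 19625 and 36837 FPKM in them.

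The reverse cells also exist. Of 10 cells with Ins1 alone, 5 held it at 200 FPKM or more: 7829 FPKM with Ins2 at 8.36 in E15.5 run 1, and 2459, 866, 391 and 203 FPKM with Ins2 at 0. Iapp was between 2372 and 33134 FPKM in these 5, and Gcg was above 10000 FPKM in 2 of them. Of the 10 cells, 3 carried the same pair of index sequences in 3 different sets, and the part of this in the pattern was not tested.

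Ins2 reads were assigned to several annotated transcripts. Ins2-204, a 455-base transcript of 3 exons (chr7:142678661-142679717, minus strand), held 79.4% and 79.9% of Ins2 FPKM in E14.5 cells and 83.9% and 83.3% in E15.5 cells (run 1 before run 2). Ins2-206, which starts upstream at 142699510 and gives the gene its long interval, held 0.0874% to 0.300%. Ins1 has 1 annotated transcript of 1062 bases and 2 exons. Transcripts of a gene this short share most of their bases, so the division between them is uncertain.

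Pooled over cells of E14.5 and E15.5, insulin was more often found in cells without Neurog3. States were set at 10 FPKM of Neurog3 and of Fev. Ins2 was at 10 FPKM or more in 23.5% of 119 cells with Neurog3 alone, 30.3% of 66 with Neurog3 and Fev, 34.9% of 63 with Fev alone and 55.4% of 101 with neither. Ins1 was at 5.04%, 7.58%, 14.3% and 28.7% in the same order. At 1000 FPKM the Ins2 shares were 3.36%, 9.09%, 11.1% and 24.8%, and those of Ins1 1.68%, 0%, 6.35% and 12.9%. The order of the pooled shares was the same for both genes except for Ins1 at 1000 FPKM, where no cell with Neurog3 and Fev was found (0 of 66).

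**Figure D4:**
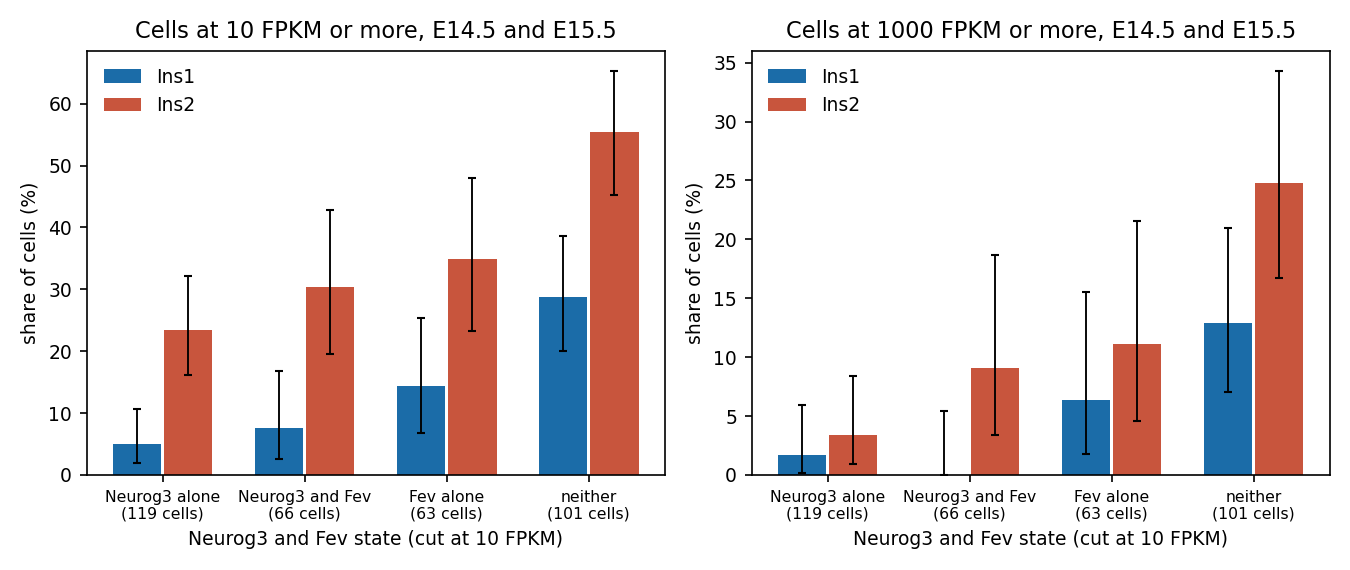
Share of E14.5 and E15.5 cells (y axis, %) with Ins1 (blue) or Ins2 (red) at 10 FPKM or more (left) and 1000 FPKM or more (right) in 4 states (x axis) set by Neurog3 and Fev at 10 FPKM; bars start at 0 and whiskers are 95% exact binomial intervals over pooled cells, which cover counting error only. The highest bars are those with neither gene, 55.4% for Ins2 and 28.7% for Ins1 on the left.

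Taken step by step within sets, none of the differences between neighbouring states passed a test. The insulin shares of all cells with Neurog3 and all cells without it were not tested against each other. Across the 6 late sets, those from E13.5 on, Ins2 shares differed by 7.68 points from Neurog3 alone to Neurog3 and Fev (higher in 4 of 6 sets), by 2.68 points from there to Fev alone (4 of 6), and by 7.87 points from Fev alone to neither (5 of 6). The exact sign-flip p was 0.312, 0.812 and 0.156, and the smallest possible is 0.0312. For Ins1 the steps were 1.44 points (higher in 3 of 6 sets), 6.70 points (4 of 6) and 6.52 points (3 of 6), with exact p of 0.625, 0.188 and 0.250. After adjustment over the 6 steps the lowest exact p was 0.469. In mean level limma called 1.48%, 0.269% and 0.211% of 15628 genes for the 3 steps, and neither insulin gene was called in any. The largest step was that of Ins1 from Neurog3 and Fev to Fev alone, 2.83 ± 1.22 log2 units (limma, adjusted p = 0.371).

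Seen from the insulin cells, Neurog3 was at 10 FPKM in 10 of the 42 E14.5 and E15.5 cells with Ins2 at 1000 FPKM (23.8%) against 57% of the 307 other cells. Fev was at 10 FPKM in 13 of 42 (31%) against 37.8%. At E13.5 all 3 such cells had Neurog3, as did 69.9% of the 143 others. Correlations of log2(FPKM + 1) across cells were averaged over the same 6 late sets (495 cells), and Neurog3 had -0.22 with Ins1 and -0.18 with Ins2, and Fev -0.02 and 0.01. These values are weak in sparse data and describe cells that share libraries.

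The ratio could hardly be compared between Neurog3 states. Only E15.5 run 2 had at least 3 cells with both insulin genes on each side, with a median log2 ratio of 3.99 in 3 cells with Neurog3 and 4.01 in 14 without. With any number of cells admitted, 4 sets gave a mean difference of 0.46 (exact sign-flip p = 0.750, smallest possible 0.125). The cells with Neurog3 numbered 1 to 3 per set.

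Genes whose levels ran most alike with insulin were ranked by the same mean correlation over 12552 genes. Beside each other (r = 0.50, from 0.06 in E13.5 run 1 to 0.82 in E15.5 run 2), Ins1 and Ins2 shared 6 of the 8 highest genes. These were G6pc2, an islet glucose-6-phosphatase, Gip, a gut incretin, Iapp, Ppp1r1a, a protein phosphatase inhibitor, Slc2a2, the glucose transporter GLUT2, and Sytl4, which acts in granule release. Ins1 further had the purinergic receptor gene P2ry1 (0.41) and Ins2 the granule zinc transporter gene Slc30a8 (0.36). Gip led for Ins1 at 0.54, but its 0.94 in E13.5 run 1 comes from a set with no cell above 4.52 FPKM of Ins1. The same holds for P2ry1, at 0.82 in that set and -0.03 in E14.5 run 1. At the low end stood Mdk and Kit for both genes (-0.23 to -0.26), with Cdkn1a and Ddah2 for Ins1 and St3gal6 and Klhl24 for Ins2.

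Cells with insulin at 100 FPKM or more were then compared, in 5 sets with at least 5 such cells, with lineage cells that had Neurog3 or Fev but both insulin genes under 10 FPKM. The insulin genes, Neurog3 and Fev chose the cells and are not tested. Neurog3 or Fev was asked of lineage cells only, so the presence of insulin and the absence of these factors cannot be fully told apart here. With limma 3 of 14863 genes passed (0.0202%), 1 higher and 2 lower, and 1435 had an unadjusted p under 0.05. This count depended on the averaging and on the sets used. With the logarithm taken per cell before averaging, 215 of 14863 genes were higher and 16 lower in the same 5 sets. Without E13.5 run 1, 24 genes were higher and 29 lower (0.356%). Its insulin class held 5 cells, with Neurog3 at 124 to 3406 FPKM and Ins1 at 0, and the set was low in Rpl13 (111 FPKM). Without E14.5 run 1, 0 were higher and 1 lower, and without run 2 of E14.5 or of E15.5, 6 and 5 were lower. The shares of genes higher and lower without E13.5 run 1 were 0.161% and 0.195%. At 1000 FPKM of insulin 35 genes were higher and 90 lower (0.848%), but that fit had 4 sets and also lacked E13.5 run 1, so the cut and the set cannot be told apart in it. With values scaled to each cell's fragments and the same cells, 2 genes were higher and 3 lower (0.0336%). When the cells were also chosen on the scaled values, E13.5 run 1 again fell out, and in the 4 sets left 146 genes were higher (0.948%) and 213 lower (1.38%), 2.33% in all. This last fit is called the scaled fit of 4 sets below, and it differs from the 5-set fit in scale, in cells and by that set.

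Gcg was higher by 8.36 ± 0.81 log2 units (limma, adjusted p = 0.0156). Its mean in insulin against lineage cells was 275 against 0.580 FPKM in E13.5 run 1, 5374 against 3.11 and 1448 against 16.1 in the runs of E14.5, and 14965 against 3.25 and 4588 against 82 in those of E15.5. All 5 sets had it higher, but among cells at 1000 FPKM of insulin the difference was 2.86 (limma, adjusted p = 0.554), and in the scaled fit of 4 sets it was 7.81 ± 1.68 (adjusted p = 0.0681), so neither of these kept the call. It was 8.58 (limma, adjusted p = 0.0163) without E13.5 run 1. Cells with Gcg but without insulin, Neurog3 and Fev are in neither class, so the call does not measure how insulin and Gcg go together. In E14.5 and E15.5 cells, Gcg at 1000 FPKM was found in 14 of 223 cells (6.28%) with Ins2 under 10 FPKM, 10 of 67 cells (14.9%) with Ins2 from 10 to 100 FPKM and 4 of 17 (23.5%) from 100 to 1000. It was found in 2 of 9 (22.2%) from 1000 to 10000 and in 2 of 33 (6.06%) with Ins2 at 10000 FPKM or more.

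Spp1, osteopontin of the duct and trunk epithelium, fell by 4.62 ± 0.33 log2 units (limma, adjusted p = 0.00172), from 298 to 714 FPKM in lineage cells to 8.17 to 31 FPKM in insulin cells. Habp2, a secreted serine protease gene, fell by 4.68 ± 0.49 (limma, adjusted p = 0.0205), from 54.5 to 166 FPKM to 0.0519 to 18.8 FPKM. The groups did not overlap in either gene. Both were also called lower at 1000 FPKM of insulin, without E13.5 run 1 and in both scaled fits.

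Granule and processing genes had a median difference of 0.61 against -0.16 over all genes. Of their 27 tested members 0 passed in the 5 sets, also when scaled with the same cells, while 3 rose without E13.5 run 1 and 12 in the scaled fit of 4 sets, with 0 falling in either. The granule docking gene Sytl4 had means of 29.6, 112, 88.8, 178 and 199 FPKM in insulin cells of the 5 sets and 3.93, 5.70, 1.75, 39 and 0.380 in lineage cells. Its difference of 4.22 ± 0.68 had an adjusted p of 0.167 with limma, 0.0529 without E13.5 run 1 and 0.0257 in the scaled fit of 4 sets. Slc30a8 differed by 3.30 ± 0.72 (limma, adjusted p = 0.251, 0.0150 without E13.5 run 1 and 0.0195 in the scaled fit of 4 sets), with 0 FPKM in the E13.5 run 1 insulin cells and 77.3 to 324 in the other sets.

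Glucose sensing and release genes had a median of 1.01, with 0 of 17 passing in the 5 sets on either scale, 4 rising without E13.5 run 1 and 7 in the scaled fit of 4 sets. G6pc2 was at 0 FPKM in E13.5 run 1 insulin cells and 130 to 323 FPKM in those of the other sets, against 0.376 to 17.6 FPKM in lineage cells. It differed by 4.34 ± 1.01 (limma, adjusted p = 0.265, 0.0251 without E13.5 run 1 and 0.00507 in the scaled fit of 4 sets). Folding and export genes of the endoplasmic reticulum had a median of 0.84 with 27 of 30 positive and 0 of 30 passing in the 5 sets on either scale, 1 rising without E13.5 run 1 and 12 in the scaled fit of 4 sets. In that order of fits, among them Sdf2l1, a chaperone cofactor, differed by 2.13 ± 0.73 (adjusted p = 0.404, 0.0298 and 0.00770), and Sec11c, a subunit of the signal peptidase, by 1.68 ± 0.38 (adjusted p = 0.260, 0.153 and 0.0106), both by limma.

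Beta cell transcription factors showed no common direction, with 8 of 17 tested members positive and a median of -0.47. Pax4, an early factor of the beta cell path, was higher in insulin than lineage cells in E13.5 run 1 (3028 against 1660 FPKM) and lower in the other 4 sets (52.2 to 120 against 498 to 867). Its difference was -2.43 ± 0.60 (limma, adjusted p = 0.286) and -3.25 ± 0.29 without E13.5 run 1 (adjusted p = 0.00822). Without that set 0 of the 17 rose and 1 fell, and in the scaled fit of 4 sets 1 rose and 2 fell. Foxa2 differed by -1.13 ± 0.47 (limma, adjusted p = 0.489). Cell cycle genes had a median of -1.64, with 2 of 23 positive and 0 passing in the 5 sets on either scale, and 1 fell without E13.5 run 1 and 6 in the scaled fit of 4 sets. Ccnb2, a mitotic cyclin, differed by -3.58 ± 0.57 (adjusted p = 0.167, 0.0622 without E13.5 run 1 and 0.0301 in the scaled fit of 4 sets), and Rrm2, needed to make DNA precursors, by -2.90 ± 0.69 (adjusted p = 0.265), both by limma.

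Other lists gave 0 calls in the 5 sets except Gcg and Spp1. Islet peptide hormones other than insulin had a median of 0.21 (9 tested). Insulin and IGF signalling genes had a median of -0.46 (15 tested), led by Igfbp2 at -2.78 ± 0.58 and the receptor-like Insrr at -1.62 ± 0.67. Serotonin and Fev partner genes had a median of -0.80 with 0 of 8 positive, led by Ddc at -2.71 ± 0.75 and Lmx1a at -1.59 ± 0.71. Factors and genes of other islet cells had a median of 0.02, with Hhex at -1.58 ± 0.95 and Ttr at 1.26 ± 0.42. The duct and trunk median was -0.85 and the acinar and tip median -1.21, with Cpa1 at -2.16 ± 0.73 and Cela1 at 1.71 ± 0.65. In limma the adjusted p of each gene named in these sentences was between 0.236 and 0.634. The scaled fit of 4 sets called more of these lists, with 3 higher and 2 lower among the islet hormones, 3 lower in duct and trunk, 1 lower each in acinar and tip and in insulin and IGF signalling, 1 higher among genes of other islet cells and 0 in the serotonin list. The last higher gene was Ttr, at 1.69 (limma, adjusted p = 0.00768), which also passed at 1000 FPKM of insulin (adjusted p = 0.0439) but not without E13.5 run 1 (0.0754).

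Markers of cells that a gate on eGFP should leave out were looked at in the same comparison. Of the 5 leukocyte genes 2 were tested: C1qa differed by 2.84 ± 1.01 (limma, adjusted p = 0.418, 0.0490 without E13.5 run 1 and 0.0140 in the scaled fit of 4 sets) and Cd68 by -1.13 ± 0.57 (adjusted p = 0.571). C1qa was at 10 FPKM in 16 of 33 cells with Ins2 at 10000 FPKM or more (48.5%), whereas C1qb was in 0 of 33. Pecam1 of endothelium differed by -1.08 ± 0.63 (limma, adjusted p = 0.620) and Vim of mesenchyme by -3.27 ± 0.51 (adjusted p = 0.160). For Vim the limma value was -2.91 in the scaled fit of 4 sets (adjusted p = 0.0477) and -3.74 at 1000 FPKM of insulin (adjusted p = 0.0496). No erythroid gene passed the filter on low values.

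**Figure D5:**
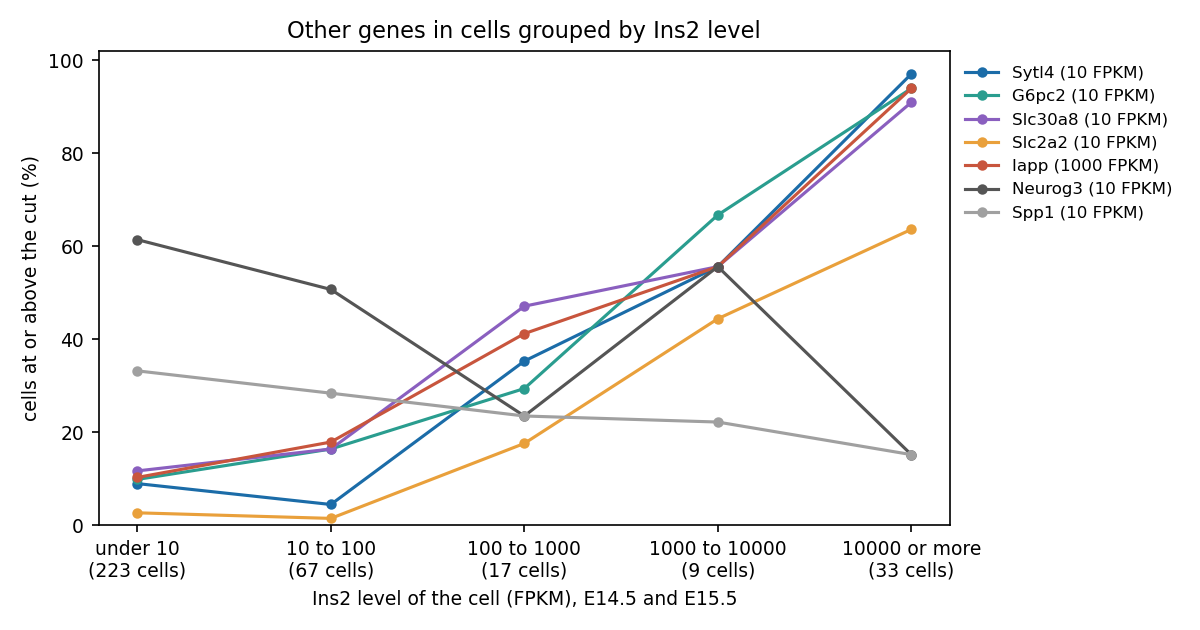
Share of E14.5 and E15.5 cells (y axis, %) at or above 10 FPKM of each gene (1000 FPKM for Iapp), in cells grouped by their Ins2 level (x axis, with the number of cells in each group); each line is a gene and each point a share over pooled cells. Sytl4 goes from 8.97% of cells with Ins2 under 10 FPKM and 4.48% at 10 to 100 to 97.0% at 10000 or more, and Neurog3 from 61.4% to 15.2%. Sytl4, G6pc2, Slc30a8, Slc2a2 and Iapp were ranked among the genes most like Ins2 in sets that include these cells, so their rise follows from that choice.

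Along the Ins2 level itself, the shares of Sytl4, Slc2a2 and Iapp at 10 to 100 FPKM lay closer to those under 10 FPKM than to those above. These 3 genes were ranked among those most like Ins2 in sets that include these same cells. Their rise with the Ins2 level thus follows from that choice and is not separate evidence on what the cells are. Sytl4 was at 10 FPKM in 8.97% of 223 cells under 10 FPKM of Ins2, 4.48% of 67 cells at 10 to 100, 35.3% of 17 at 100 to 1000, 55.6% of 9 at 1000 to 10000 and 97.0% of 33 above that. Slc2a2 went from 2.69% and 1.49% in the lowest groups to 63.6% in the highest, and Iapp at 1000 FPKM from 10.3% and 17.9% to 93.9%. Neurog3 was at 61.4%, 50.7%, 23.5%, 55.6% and 15.2%, and the 55.6% stands for 5 of 9 cells.

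The 33 cells with the most Ins2 carried an incomplete beta cell set. The factors Pdx1 and Nkx6-1 were at 10 FPKM in 90.9% and 84.8% of them. Mafa, a factor of mature beta cells, was found in 0 of 33. Iapp was at 1000 FPKM in 31 of 33. Of all 45 cells with Ins2 at 1000 FPKM, 5 had Gcg, 3 Ppy, 1 Sst and 1 Ghrl at 1000 FPKM.

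Finally, cells with both insulin genes were compared with cells that had Ins2 at 10 FPKM and Ins1 under 1 FPKM, in the 4 sets of E14.5 and E15.5. With limma 0 of 14236 genes passed (0% called, with 959 or 6.74% at an unadjusted p under 0.05). When cells instead of set means carried the logarithm, 124 genes were higher and 4 lower (0.899%). With Ins2 at 1000 FPKM or more on both sides, 2 were higher (0.0151%), in a fit of 3 sets where Ins2 alone meant Ins1 under 10 FPKM. Endoplasmic reticulum genes had a median of 1.04 with 30 of 30 positive, glucose sensing genes 1.37 with 13 of 17 and granule genes 0.92 with 24 of 27, against 0.06 over all genes. Cells with both genes also held more Ins2, so Ins1 and the Ins2 level cannot be told apart in these medians.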

How the data were processed

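Single cells of Neurogenin 3-eGFP mouse pancreas at 5 embryonic days were analysed from gene and transcript FPKM that the authors deposited. Per the submitters' processing notes, reads were aligned to mm10 with TopHat2 2.0.13 and quantified with Cufflinks 2.2.0; no source used here names the annotation. Values of FPKM as deposited are not scaled to the depth of a cell, as set out above. Kept cells had at least 100000 fragments and 1500 genes at 1 FPKM or more, which left out 63. The filter on genes was a mean of 1 FPKM over the fitted means.

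Levels were fitted as log2(mean FPKM per set, or per set and class, + 1) with limma 3.58.1 (trend, R 4.3.3) across all genes, with Benjamini-Hochberg adjustment, so fold changes understate those of low genes. Day fits had run as a term, and class fits had the set as a block. Shares used exact permutation tests over sets (numpy 2.4.6, scipy 1.17.1), all two-sided, and exact binomial (Clopper-Pearson) intervals at 95%. Because the labels name no embryos, p-values measure the spread between sets. Doublets were not called, since each cell was sorted into a well. The fits were tested on simulated data with known changes.

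Named genes were, per list, up to 4 past the test, otherwise the 2 with the largest difference, up to 8 in each direction among all genes past the test, and the 8 most and 4 least like each insulin gene. The members, lists and rules were chosen with earlier results of these data known. Alternatives covered thresholds, fragments, filters, pseudocounts, scaling and leaving out sets.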

Additional observations from a re-analysis of the deposited data

How the results depend on the processing

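No paired analysis was possible because the numbers in the labels name wells and do not pair cells across sets; comparisons of cell classes were made within sets. Of 404 values of 27 results under alternatives, 321 were the same. For tests this means the same direction and side of the threshold, which includes results that passed in neither setting. For counts of genes it means an equal or similar count. The cause of each change was not tested. Some alternatives also used fewer sets, as at 1000 FPKM and with cells chosen anew for insulin cells (4 sets in place of 5). The alternatives at 1000 FPKM for shares, states and Ins2 alone, by fragments, scaled to fragments and with 1 cell per state were chosen after seeing the data.

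Slopes of the shares (Ins1, Ins2, both, Ins2 without Ins1) lost the threshold with fewer sets: 4.96, 13.4, 4.47 and 8.91 points per day without E12.5 run 1 and E13.5 run 1, 9.14, 23.4, 8.59 and 14.8 for E13.5 to E15.5, and 4.52, 11.8, 4.0 and 7.77 with 1 value per day. At 10 fragments Ins2 without Ins1 had 1.63. Without each set in turn the ranges were 4.07 to 6.49, 9.61 to 18.5, 3.44 to 6.10 and 5.36 to 12.4. The Ins2 excess over Ins1 lost it at 1000 FPKM (3.91) and with 1 value per day (11.7).

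No step between states passed, and several changed sign. The Ins1 share from Neurog3 to Neurog3 and Fev was -1.35 at 1000 FPKM and -0.304 with rescaled FPKM (without sets -0.0508 to 2.78). The Ins2 share from there to Fev was -1.57 at 1 FPKM and -0.202 at 100 FPKM (-4.92 to 8.67). The log2 ratio with minus without Neurog3 was -0.02, and 0.46 with 1 cell per state. Of log2 levels, the first step was 0.05 for Ins1 with states cut at 1 FPKM (-1.58 to 0.76 without sets) and -0.03 for Ins2 with rescaled FPKM (-1.13 to 2.13). The second step of Ins2 was -0.18 with states cut at 1 FPKM. The last step was -0.41 to 0.87 without sets for Ins1. For Ins2 it was 0.32 with at least 10 cells, 0.47 with a pseudocount of 10, 0.10 with rescaled FPKM, 0.21 scaled to fragments and -0.54 to 0.50 without sets. Run 2 minus run 1 for Ins2 was 0.44 as a mean of logs and -2.12 to 0.47 without sets. The levels could not be fitted with states cut at 100 FPKM.

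Genes higher and lower in insulin cells (1 and 2) numbered 35 and 90 at 1000 FPKM, 215 and 16 as a mean of logs, 146 and 213 scaled to fragments with cells chosen anew, 2 and 3 scaled with the same cells, 0 and 1 with no filter and with cells of at least 300000 fragments, 0 higher with a pseudocount of 10, 1 lower with one of 0.1, 0 lower at 10 FPKM, and 0 to 24 higher and 1 to 29 lower without sets. For both genes against Ins2 alone (0 and 0) they were 124 and 4 as a mean of logs, 1 and 1 with rescaled FPKM and scaled to fragments (cells chosen anew or as before), 2 higher with Ins2 at 1000 FPKM, 1 higher with a pseudocount of 0.1 and with 300000 fragments, and 0 to 2 in each direction without sets. Depth limits both genes at low levels, where 10 FPKM is 4.68 fragments of Ins1 and 1.41 of Ins2.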
